A study of Mus musculus with 6 samples.

Results

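A set of 10 genes of the last electron transfer steps before cytochrome c oxidase were followed in mouse blastocysts: the nuclear genes of complex III subunits (Uqcrb, Uqcrc1, Uqcrc2, Uqcrfs1, Uqcrh, Uqcrq, Uqcr10, Uqcr11 and Cyc1) and Cycs, the somatic cytochrome c. They were chosen by name, with earlier results of these data known. All 10 were found among the 55774 genes of the table and among the 11924 genes that were tested. Wild-type 2-cell embryos of ICR females were cultured to the blastocyst stage in CZB medium with extracellular vesicles from human Fallopian tubes. In the oEV-EMT group the vesicles came from women with endometriosis, and in the oEV-ctrl group from women without it, whom the sample labels describe as having uterine fibroids while the methods name another diagnosis. Each group had 3 poly(A)-selected RNA libraries of 10 blastocysts, and all 6 were exposed to vesicles, since no library of embryos without vesicles was analysed here. The sources do not say whether the libraries came from separate cultures or vesicle donors, so p-values measure the spread between these libraries. The question was whether vesicles of the endometriosis group left these mRNAs at other levels.

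Complex III, or cytochrome bc1 complex, sits in the inner mitochondrial membrane. It takes electrons from reduced coenzyme Q, passes them to cytochrome c and moves protons across the membrane. Cytochrome b, Cyc1 and the Rieske protein Uqcrfs1 carry its redox centres, Uqcrc1 and Uqcrc2 are its large core proteins, and the others are small supernumerary subunits. Cytochrome c carries the electrons on to complex IV and, once released into the cytosol, joins the apoptosome. Only cytochrome b is encoded in mitochondrial DNA (mt-Cytb).

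Values are FPKM, which divide the fragments of a gene by transcript length and by library depth, so that levels of genes can be compared per length. Differences are oEV-EMT minus oEV-ctrl on the log2(FPKM + 1) scale, with the standard error (SE), 95% interval and adjusted p-value of limma over all genes tested. FPKM are not scaled between libraries, and the median of all genes tested was 0.17 higher in oEV-EMT on this scale. Differences are therefore also given relative to that median, or after median-of-ratios scaling, which brought the median of all genes to 0.02. The library with the most reads per FPKM step had 2.07 times the depth of that with the fewest. Counting error of a member was at most 2.84% in any library, as far as the steps of low FPKM values show it. All 10 trophectoderm, 7 epiblast or inner cell mass and 6 primitive endoderm markers were above 1 FPKM in at least 1 library. The 6 cumulus and the 5 oviduct markers were below 1 FPKM in every library, with 3 and 2 of them at 0. Of 6 blood markers 4 were below 1 FPKM and 3 at 0, and the highest reached 2.22 FPKM. In pooled blastocysts, fewer cells of a type and less RNA per cell cannot be told apart.

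Upstream sequence is shown for the 4 members in which the groups were separated as deposited or after median-of-ratios scaling, Uqcrh, Uqcr10, Cycs and Uqcr11. These are the 250 bases before the RefSeq start on GRCm38.p6, read 5′ to 3′ on the strand of the gene, with exact motif matches in capitals. All 4 genes lie on the minus strand, at chr4:116075071-116075320, chr11:4704345-4704594, chr6:50566570-50566819 and chr10:80406822-80407071 in that order.
Uqcrh: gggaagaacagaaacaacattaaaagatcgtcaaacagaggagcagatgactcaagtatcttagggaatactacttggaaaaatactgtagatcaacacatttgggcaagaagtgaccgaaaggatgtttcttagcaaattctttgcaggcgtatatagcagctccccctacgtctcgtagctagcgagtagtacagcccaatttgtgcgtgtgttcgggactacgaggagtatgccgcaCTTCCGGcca
Uqcr10: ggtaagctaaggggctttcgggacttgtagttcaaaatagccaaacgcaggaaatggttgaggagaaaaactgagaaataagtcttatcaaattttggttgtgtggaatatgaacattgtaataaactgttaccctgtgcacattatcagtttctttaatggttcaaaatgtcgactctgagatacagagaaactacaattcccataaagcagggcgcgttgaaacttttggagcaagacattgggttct
Cycs: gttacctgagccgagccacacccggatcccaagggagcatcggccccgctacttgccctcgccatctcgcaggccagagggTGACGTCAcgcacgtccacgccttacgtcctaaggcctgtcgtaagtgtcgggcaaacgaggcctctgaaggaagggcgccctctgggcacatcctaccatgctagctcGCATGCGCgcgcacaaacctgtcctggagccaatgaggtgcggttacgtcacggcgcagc
Uqcr11: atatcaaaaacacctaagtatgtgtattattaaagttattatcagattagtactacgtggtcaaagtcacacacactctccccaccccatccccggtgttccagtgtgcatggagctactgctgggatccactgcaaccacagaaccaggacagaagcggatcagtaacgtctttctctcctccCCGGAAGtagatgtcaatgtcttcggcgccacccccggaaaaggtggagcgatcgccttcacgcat

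RefSeq windows were at hand for 6 of the 10 members. Both strands were searched for TGCGCA, a short form of the binding motif of nuclear respiratory factor 1, for CCGGAAG of ETS-family factors such as Gabpa, and for TGACGTCA, the cAMP response element. An NRF1 form of 8 letters, GCATGCGC, was added after the windows had been read. The ETS letters stood in Uqcrh, at -10 from the start and on the opposite strand, and in Uqcr11 at -66. The cAMP response element stood in Cycs at -169 and in Uqcrfs1 at -29. TGCGCA was in 0 of the 6 windows, and GCATGCGC was in Cycs alone, at -60. Among all 32851 RefSeq windows, TGCGCA was in 6.43%, GCATGCGC in 2.26%, CCGGAAG in 6.91% and TGACGTCA in 1.55%. The Uqcr10 and Uqcrc1 windows held none of these letters. A match is a description of the letters only, and these do not overlap each other in any of the windows.

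At the thresholds of the study, an adjusted p of at most 0.05 with an absolute log2 difference of at least 1, 0 of the 10 members were called, as were 0 (0%) of all genes tested. The smallest adjusted p over all genes was 0.0934. Among the members 3 had an unadjusted p of at most 0.05 in limma, Uqcrh, Uqcr10 and Cycs, and all 3 were lower in oEV-EMT. Over all genes, 2.55% passed that mark in the lower and 12.8% in the higher direction. By complete separation, with the 3 oEV-EMT values all on one side of the 3 oEV-ctrl values, 2 members were lower (Uqcrh and Cycs), against 4.34% of all genes. The gene Uqcr11 was higher, where 18.1% of all genes were. After median-of-ratios scaling 3 members were separated as lower (Uqcr10 was added) and 0 as higher, against 10.0% of all genes in the lower and 10.0% in the higher direction. The median member differed by 0.01, or -0.16 relative to all genes, and 7 of 10 members lay below the median of all genes.

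**Figure D1:**
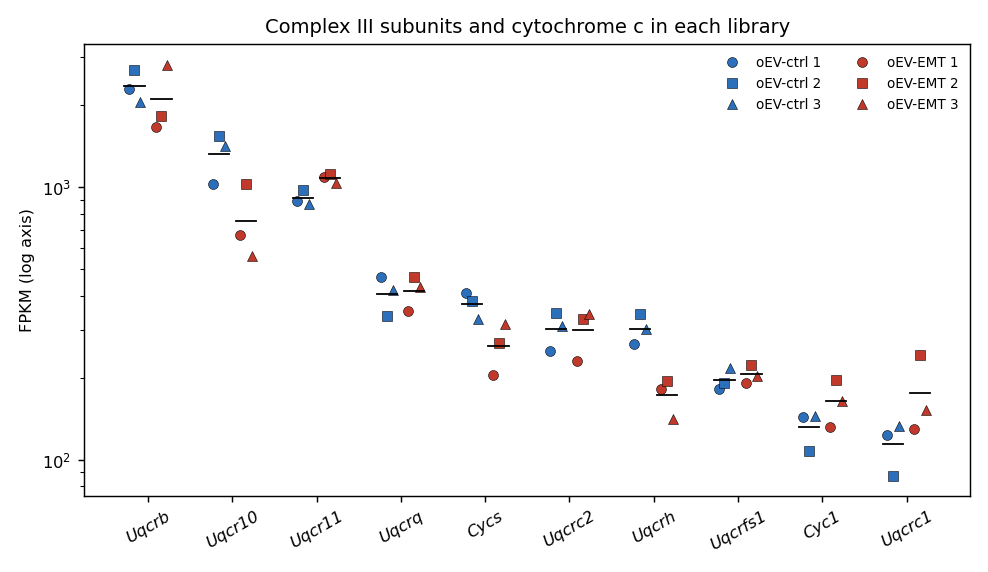
FPKM of each member (log axis) in the 3 oEV-ctrl (blue) and 3 oEV-EMT (red) libraries, with the marker shape giving the library and a bar at the group mean. The oEV-EMT values of Uqcrh and Cycs lie below all of their oEV-ctrl values, those of Uqcr11 lie above, and the groups of the other 7 genes overlap.

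Uqcrh, the acidic hinge subunit at the docking face for cytochrome c, had the smallest adjusted p of the members. Its FPKM were 182, 195 and 141 in oEV-EMT libraries 1 to 3, against 266, 343 and 301 in oEV-ctrl. The groups did not overlap, and oEV-EMT 3 was the lowest library. The means were 173 ± 28.0 and 303 ± 38.7 (SD, n = 3 each), a ratio of 0.571. The log2 difference was -0.81 (SE 0.203, interval -1.26 to -0.36, limma adjusted p = 0.158), or -0.98 relative to all genes. An exact two-sided permutation test gave p = 0.1, the smallest that 3 libraries against 3 allow. Leaving out each library in turn gave differences from -0.90 to -0.67.

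Uqcrh (ENSMUSG00000063882) lies on chr4:116066965-116075071 of GRCm38, with 5 annotated transcripts of at most 4 exons. A processed pseudogene on the opposite strand, Gm12854, lies within its bounds and shares 0 exon bases with it. Gm12854 had 46.5, 52.5 and 36.8 FPKM in oEV-EMT and 61.6, 125 and 88.9 in oEV-ctrl, so it was lower without overlap as well. Whether reads were assigned by strand is not given in the sources used here. Uqcrh itself held at least 99.4% of the FPKM summed with the 1 gene that shares sequence with it, a pseudogene below 1 FPKM.

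The study also assayed Uqcrh by real-time PCR, and its primer pair is shown because it marks the stretch of mRNA that assay reads; PCR values are not used here.
Uqcrh forward: aggacgaacgaaagatgc
Uqcrh reverse: cgggaagacacgcgatta
The forward primer matched chr4:116074942-116074959 in exon 1, and the reverse primer matched chr4:116069927-116069944 in exon 3. Both are in coding sequence of the 547-base transcript, where they span 163 bases, and 2 of the 5 Uqcrh transcripts hold the pair. Transcripts of 0 other genes hold the pair, and 1 gene, Gm19811, which was listed at 0 in all libraries, holds one of them.

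Uqcr10, a small subunit next to the Rieske protein and cytochrome c1, showed the largest difference of the members relative to all genes. It had 669, 1031 and 562 FPKM in oEV-EMT and 1027, 1542 and 1413 in oEV-ctrl. The highest oEV-EMT library and the lowest oEV-ctrl library met at the same level, and the other libraries were apart. The means were 754 ± 246 and 1327 ± 268 (SD, n = 3 each), a ratio of 0.568. The log2 difference was -0.84 (SE 0.255, interval -1.41 to -0.28, limma adjusted p = 0.190), or -1.02 relative to all genes. After median-of-ratios scaling it was -1.03 (interval -1.62 to -0.45, limma adjusted p = 0.206) and the groups no longer overlapped. The exact permutation test on the deposited values gave p = 0.2. Uqcr10 (ENSMUSG00000059534, chr11:4701973-4704342, minus strand) shared sequence with 0 other genes.

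The 5 genes outside the group came closest to Uqcr10 over the 6 libraries, by the root mean square difference of their centred log2 values. They were Atp5j, a subunit of ATP synthase, at 0.104, Gm11914 at 0.110, the pseudogene Dnajc19-ps at 0.116, Arl14epl at 0.130 and Gm8129 at 0.143. Their log2 differences ran from -1.09 for Gm8129 to -0.69 for Gm11914, and their limma adjusted p-values from 0.133 to 0.254. The likeness rests on 6 points that share libraries and depth.

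Cycs had 204, 268 and 315 FPKM in oEV-EMT and 411, 383 and 328 in oEV-ctrl. The groups did not overlap, but oEV-EMT 3 and oEV-ctrl 3 were close. The means were 263 ± 55.6 and 374 ± 42.1 (SD, n = 3 each), with a log2 difference of -0.52 (SE 0.212, interval -0.99 to -0.05, limma adjusted p = 0.279) and an exact permutation p of 0.1. Relative to all genes the difference was -0.70. It ranged from -0.67 to -0.36 as each library was left out.

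Cycs (ENSMUSG00000063694, chr6:50562563-50566538, minus strand) has many processed copies in the genome, and 14 genes shared at least 10% of their own or its 50-base stretches. Some of the 14 are miRNA genes, each sharing at most 0.51% of the Cycs stretches. Of all 14, 4 reached 1 FPKM, among them the miRNA gene Gm26268, at 1.21 FPKM in oEV-ctrl 2. Gm10053, annotated as protein coding, had 170, 209 and 247 FPKM in oEV-EMT and 300, 286 and 244 in oEV-ctrl. Another copy, Gm10108, had 31.5, 38.1 and 27.5 against 63.2, 64.9 and 60.7. Cycs held between 49.9% and 53.0% of the FPKM summed over it and these genes in each library. FPKM are per length, so this is not a share of reads. The stretches shared with Gm10053 made up 94.43% of Gm10053 but 25.25% of Cycs, so Gm10053 is the shorter one. Reads of Cycs and its copies may be split between them, and the level of Cycs alone is uncertain. The sum over Cycs and these 14 genes differed by -0.52 (limma adjusted p = 0.259) and did not overlap between the groups.

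Cyct, the cytochrome c of testis, was also detected. It had 119, 151 and 249 FPKM in oEV-EMT and 122, 175 and 148 in oEV-ctrl, a log2 difference of 0.17 (interval -0.45 to 0.78, limma adjusted p = 0.801). As a share of Cycs plus Cyct it made up 36.7%, 36.0% and 44.1% in oEV-EMT and 23.0%, 31.3% and 31.0% in oEV-ctrl. The share was higher in all 3 oEV-EMT libraries, and most of the distance between the groups lay in the Cycs values.

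Uqcr11, a small subunit at the edge of the complex, was the member whose values were separated as higher. It had 1090, 1116 and 1034 FPKM in oEV-EMT and 892, 975 and 872 in oEV-ctrl. Libraries within a group were close, with means of 1080 ± 41.7 and 913 ± 54.6 (SD, n = 3 each). The log2 difference was 0.24 (SE 0.167, interval -0.13 to 0.61, limma adjusted p = 0.512), which is 0.07 relative to all genes. After median-of-ratios scaling it was 0.05 and the groups overlapped. Gm16418, which shares sequence with Uqcr11 (ENSMUSG00000020163, chr10:80402997-80406830, minus strand), ran from 120 to 164 FPKM, and Uqcr11 held at least 86.3% of their sum.

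Among the nuclear core and redox subunits, Uqcrc1 had 130, 243 and 153 FPKM in oEV-EMT and 123, 87.6 and 134 in oEV-ctrl. Its groups overlapped, with oEV-EMT 2 high and oEV-ctrl 2 low, and the log2 difference was 0.58 (SE 0.268, interval -0.02 to 1.17, limma adjusted p = 0.339). Without oEV-EMT 2 it was 0.31 and without oEV-ctrl 2 it was 0.40. Cyc1, the cytochrome c1 that hands electrons to cytochrome c, had 132, 197 and 164 FPKM in oEV-EMT and 144, 108 and 145 in oEV-ctrl. Its difference was 0.30 (interval -0.19 to 0.79, limma adjusted p = 0.535), and the lowest library was again oEV-ctrl 2. Leaving out either oEV-EMT 2 or oEV-ctrl 2 brought it to 0.164. After median-of-ratios scaling the differences of Uqcrc1 and Cyc1 were 0.39 and 0.11. These genes lie on chr9:108936633-108949623 and chr15:76343523-76346260, both on the plus strand.

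Uqcrc2, the other core protein (chr7:120635176-120659524, plus strand), had 231, 328 and 343 FPKM in oEV-EMT and 251, 345 and 309 in oEV-ctrl. The group means were 301 ± 60.7 and 302 ± 47.0 (SD, n = 3 each), and the log2 difference was -0.01 (interval -0.50 to 0.47, limma adjusted p = 0.984). Uqcrfs1 (chr13:30540308-30545362, minus strand) was the steadiest member. Its FPKM were 191, 223 and 204 in oEV-EMT and 182, 191 and 217 in oEV-ctrl, so the highest library was 1.22 times the lowest. Its difference was 0.07 (interval -0.34 to 0.47, limma adjusted p = 0.881). These intervals leave room for changes of either sign.

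Uqcrb and Uqcrq overlapped widely between the groups. Uqcrb, which contacts the coenzyme Q site of cytochrome b, had 1660, 1833 and 2823 FPKM in oEV-EMT and 2302, 2691 and 2053 in oEV-ctrl. The spread within oEV-EMT was larger than the distance between the means, and the log2 difference was -0.19 (interval -0.70 to 0.32, limma adjusted p = 0.722). It came to -0.04 without oEV-EMT 1 and to -0.42 without oEV-EMT 3. Uqcrb (chr13:66900617-66905378, minus strand) held 77.3% to 80.6% of the FPKM summed with 4 genes that share its sequence. Uqcrq (chr11:53427922-53430831, minus strand) had 351, 467 and 432 FPKM in oEV-EMT and 467, 336 and 419 in oEV-ctrl. Its difference was 0.03 (interval -0.42 to 0.49, limma adjusted p = 0.949). Over the 6 genes Uqcrb, Uqcrc1, Uqcrc2, Uqcrfs1, Uqcrq and Cyc1, exact permutation p-values ran from 0.2 to 0.9.

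**Figure D2:**
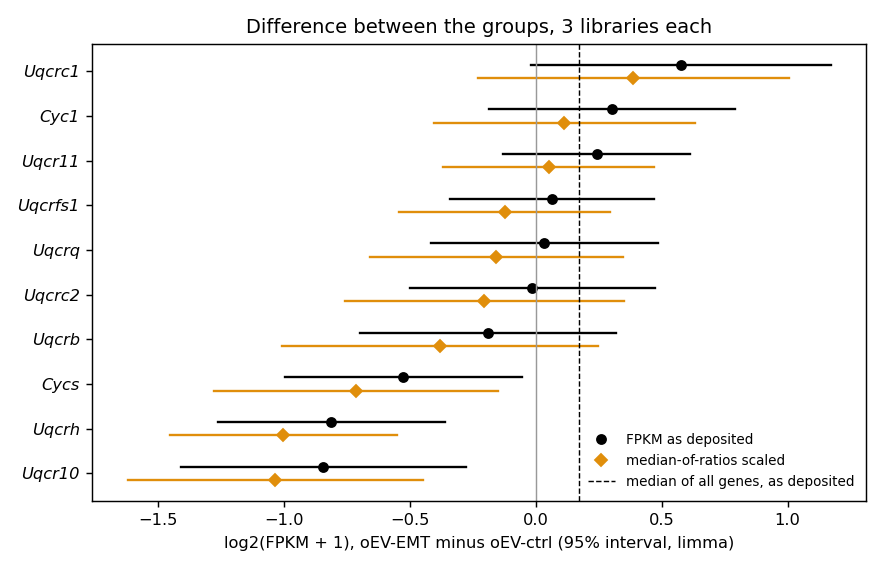
Difference of each member between oEV-EMT and oEV-ctrl on the log2(FPKM + 1) scale with its 95% limma interval, for FPKM as deposited (black circles) and after median-of-ratios scaling (orange diamonds); the dashed line is the median of all genes as deposited, 0.17. The intervals of Uqcr10, Uqcrh and Cycs lie below 0 on both scales, and those of the other 7 members include 0.

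Levels of the members spanned more than a factor of 10. Over the 6 libraries, mean FPKM were 2227 for Uqcrb, 1041 for Uqcr10, 997 for Uqcr11 and 412 for Uqcrq. They were 318 for Cycs, 301 for Uqcrc2, 238 for Uqcrh, 201 for Uqcrfs1, 148 for Cyc1 and 145 for Uqcrc1. Small subunits thus stood above the core and redox subunits per length, apart from Uqcrh. Among neighbours in this order only Uqcrb and Uqcr10, and Uqcr11 and Uqcrq, had ranges over libraries that did not overlap. The lowest Uqcrb library was at 1660 FPKM and the highest Uqcr10 library at 1542. Uqcr10 was above Uqcr11 in 3 of 6 libraries, which were the 3 oEV-ctrl libraries.

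Ratios within a library do not depend on the scaling between libraries. Each small subunit and Cycs was divided by the mean of Uqcrc1, Uqcrc2, Cyc1 and Uqcrfs1 in the same library. For Uqcrh the ratios were 1.07, 0.788 and 0.656 in oEV-EMT and 1.52, 1.88 and 1.50 in oEV-ctrl. For Uqcr10 they were 3.91, 4.16 and 2.60 against 5.87, 8.44 and 7.03. Both ratios were lower in oEV-EMT, and the ranges of the groups did not meet. The Cycs ratios were 1.20, 1.08 and 1.46 against 2.35, 2.10 and 1.63, also without overlap. The ratios of Uqcrb, Uqcrq and Uqcr11 overlapped between the groups. The 4 genes of the denominator averaged 171, 248 and 216 FPKM in oEV-EMT and 175, 183 and 201 in oEV-ctrl. This denominator was highest in oEV-EMT 2, and the FPKM of Uqcr10 themselves overlapped between the groups. How many of all genes separate when divided by it was not computed. The ratio of Uqcr10 to Uqcr11, both small subunits, was 0.614, 0.923 and 0.543 against 1.15, 1.58 and 1.62. Uqcr10 had the largest difference relative to all genes and Uqcr11 was separated as higher, so this split follows from the choice of the pair. For Uqcrh to Uqcrq the ratios were 0.520, 0.418 and 0.327 against 0.568, 1.02 and 0.718. No test was run on these ratios, which were chosen with earlier results known.

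**Figure D3:**
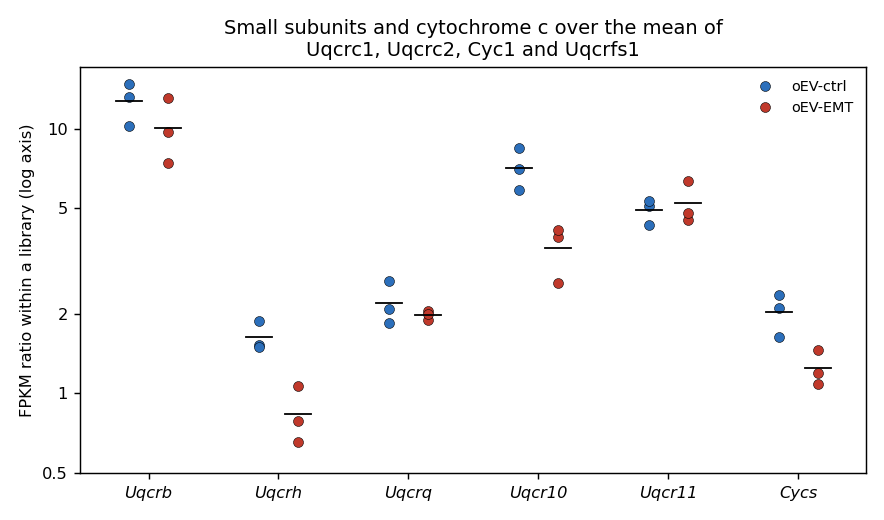
FPKM of the 5 small subunits and of Cycs divided by the mean FPKM of Uqcrc1, Uqcrc2, Cyc1 and Uqcrfs1 in the same library (log axis), for oEV-ctrl (blue) and oEV-EMT (red), with a bar at each mean. The ratios of Uqcrh, Uqcr10 and Cycs do not overlap between the groups, with Uqcrh means of 1.63 in oEV-ctrl and 0.837 in oEV-EMT. The share of all genes that separate in this way was not computed.

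Many members had their highest or lowest value of a group in the same library. How many of all genes had the same highest or lowest library was not computed. Within oEV-EMT, library 2 was the highest for 7 members and library 1 the lowest for 7. Library 3 was the lowest for the other 3, Uqcrh, Uqcr10 and Uqcr11. Within oEV-ctrl, library 2 was the highest for Uqcrb, Uqcrc2, Uqcrh, Uqcr10 and Uqcr11 and the lowest for Uqcrc1, Cyc1 and Uqcrq. Among all tested genes, oEV-ctrl 2 had a median centred value of -0.258 in the 4373 genes with a transcript GC content of 52% and over, and 0.0352 in the 2564 genes under 45%. In the same classes it was 0.24 and 0.0936 in oEV-EMT 1, 0.195 and -0.0332 in oEV-EMT 2, and -0.0382 and 0.0264 in oEV-EMT 3. For oEV-ctrl 1 it was -0.0833 and -0.154, and for oEV-ctrl 3 -0.0311 and 0.0355. The median difference between the groups was 0.253 in the high and 0.0601 in the low class. Median transcript GC content was 56.1% for Uqcrc1 and 61.4% for Cyc1, and 48.7% for Uqcrh and 53.7% for Uqcr10. With a curve on GC content removed in each library, the differences were 0.35 for Uqcrc1, 0.05 for Cyc1, -0.94 for Uqcrh and -1.05 for Uqcr10. Without oEV-ctrl 2, Uqcrh differed by -0.72 and Uqcr10 by -0.72. Median annotated transcript length was short in 8 members, from 434 bases for Uqcr10 to 737 for Cyc1. Among these 8, the longest transcripts were 2473 bases for Uqcrc1, 1896 for Uqcrc2, 1791 for Cyc1 and 1521 for Uqcrq. The 2862 genes under 700 bases had a median difference of 0.143, near that of all genes. Their 10th percentile was -0.424, against -0.192 at 700 to 1500 bases and -0.283 at 1500 and over. Uqcrh, with a median of 547 bases, and Uqcr10 fall in the class under 700, as do Uqcrb, Uqcrq, Uqcrc1 and Uqcr11. Of these, Uqcrc1 (0.58) and Uqcr11 (0.24) differed in the higher direction. Cycs, which was lower, has a median of 1865 bases.

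**Figure D4:**
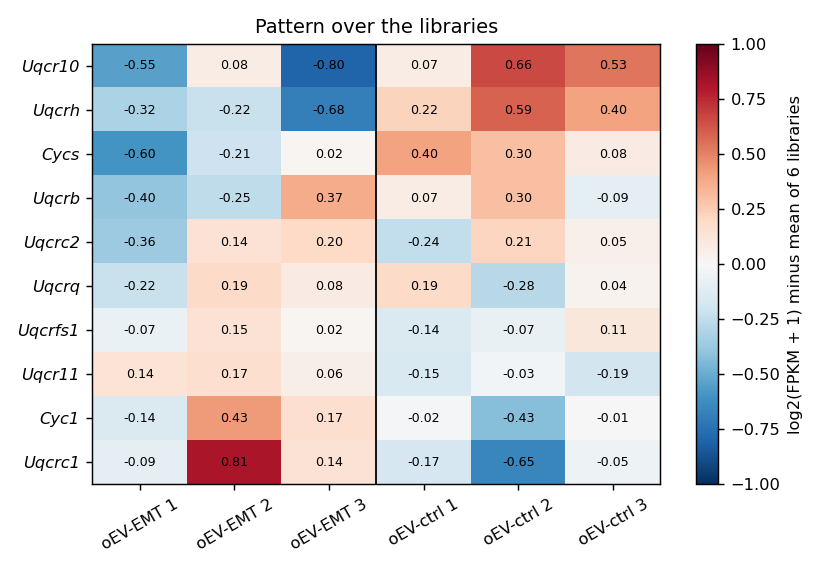
Heat map of log2(FPKM + 1) of each member minus its mean over the 6 libraries, with the value printed in each cell, oEV-EMT left and oEV-ctrl right of the line. Uqcr10 and Uqcrh are low in oEV-EMT 1 and 3 and high in oEV-ctrl 2 and 3, while Uqcrc1 and Cyc1 are high in oEV-EMT 2 and low in oEV-ctrl 2.

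Markers of the cell types of the blastocyst were summed for each library. Trophectoderm markers summed to 3164 to 4782 FPKM in oEV-EMT and 3103 to 4872 in oEV-ctrl, and primitive endoderm markers to 132 to 257 and 179 to 234. The 7 epiblast and inner cell mass markers summed to 106 to 147 FPKM in oEV-EMT and 59.2 to 103 in oEV-ctrl, so these sums did not overlap. Such sums weigh genes with high FPKM most and do not stand for every marker of a list. The highest single value was 3283 FPKM among trophectoderm, 56.1 among epiblast and inner cell mass, and 215 among primitive endoderm markers. Of the 7 genes, 3 were higher and 0 lower without overlap, beside 18.1% and 4.34% of all genes, while 4 lay above and 3 below the median of all genes, and the smallest limma adjusted p was 0.175. Of the 6 primitive endoderm markers 1 was higher without overlap, 2 were above and 4 below the median of all genes, and the smallest limma adjusted p was 0.174. Of the 10 trophectoderm markers 0 were without overlap and 8 lay below that median. The part of these markers in the levels of Uqcrh, Uqcr10 and Cycs was not tested.

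The mitochondrially encoded partner, cytochrome b, was lower as well in values. mt-Cytb had 6226, 7353 and 8776 FPKM in oEV-EMT and 12330, 14990 and 8931 in oEV-ctrl. The groups did not overlap, though oEV-EMT 3 and oEV-ctrl 3 were close. The log2 difference was -0.68 (SE 0.227, interval -1.18 to -0.18, limma adjusted p = 0.218).

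Of the complex III assembly factors, 8 of 9 were matched in the table, 0 were called, and 2 were higher without overlap, where 18.1% of all genes were. After median-of-ratios scaling 1 was higher, Uqcc1, and 1 lower, Bcs1l, where 10.0% of all genes were in each direction. Uqcc1, needed for cytochrome b synthesis and insertion, had 16.8, 14.7 and 14.0 FPKM in oEV-EMT and 9.05, 9.22 and 10.9 in oEV-ctrl (log2 difference 0.59, interval 0.13 to 1.05, limma adjusted p = 0.232). BC003965, the table's symbol for Uqcc4, was barely separated, with 54.3 FPKM in its lowest oEV-EMT and 54.2 in its highest oEV-ctrl library (0.32, limma adjusted p = 0.477). The list had a median of -0.06 relative to all genes, against -0.16 for the members.

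Genes that make or reduce coenzyme Q, the substrate of complex III, lay mostly above the median of all genes. Of 12 tested genes of its synthesis, 8 were above, 0 were called, and Coq4 (0.49, limma adjusted p = 0.346) and Coq8b (0.39, limma adjusted p = 0.408) were higher without overlap. Of 7 other genes whose enzymes reduce coenzyme Q, 6 were above the median, 0 were called and 2 were higher without overlap, both membrane anchors of complex II. Sdhc had 87.6, 78.2 and 90.1 FPKM in oEV-EMT and 39.7, 53.9 and 65.9 in oEV-ctrl (0.70, interval 0.20 to 1.20, limma adjusted p = 0.207). Sdhd had 188, 203 and 300 against 131, 185 and 173 (0.48, limma adjusted p = 0.359). Both directions stand beside a background in which 18.1% of all genes were higher and 4.34% lower without overlap. After median-of-ratios scaling Coq4 and Sdhc were still separated, and Coq8b and Sdhd overlapped.

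Downstream of cytochrome c, 6 apoptosome genes were tested and 0 were called. The 5 tested genes of cytochrome c maturation, import and other electron exchange had 0 without overlap. Of 6 genes that process complex III precursors or shape the inner membrane, 1 was higher without overlap, Immt of the MICOS complex (0.35, limma adjusted p = 0.459), a share near the 18.1% of all genes. After median-of-ratios scaling Immt overlapped and 1 gene of the list, Immp2l, was lower.

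Among 8 regulators of respiratory chain transcription 0 were called. Yy1 was lower without overlap (-0.38, limma adjusted p = 0.437) and Tfam, which binds mitochondrial DNA, was higher (0.32, limma adjusted p = 0.464). Over all genes tested, 4.34% were lower and 18.1% higher without overlap. After median-of-ratios scaling 2 of these regulators were lower and 1 higher, beside 10.0% of all genes in each direction. Gabpa, an ETS-family factor, had 27.7, 35.6 and 38.8 FPKM in oEV-EMT and 20.7, 19.2 and 27.8 in oEV-ctrl, with overlap (0.57, interval 0.06 to 1.08, limma adjusted p = 0.277).

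Complex IV, which takes electrons from cytochrome c, and complex II were set beside the members. Of 11 nuclear complex IV genes 0 were called, 4 were lower without overlap and 1 was higher, beside 4.34% and 18.1% of all genes, with a median of -0.35 relative to all genes. After median-of-ratios scaling 5 were lower and 0 higher, beside 10.0% of all genes in each direction, and Cox6a1 overlapped. The 4 were Cox7c (-1.05, limma adjusted p = 0.101), Ndufa4 (-0.88, limma adjusted p = 0.105), Cox6c (-0.64, limma adjusted p = 0.184) and Cox6b1 (-0.42, limma adjusted p = 0.293), and the higher one was Cox6a1 (0.35, limma adjusted p = 0.383). The 4 complex II genes had a median of 0.18 relative to all genes, with 2 higher without overlap. Whether these lists differ from the complex III members was not tested.

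**Figure D5:**
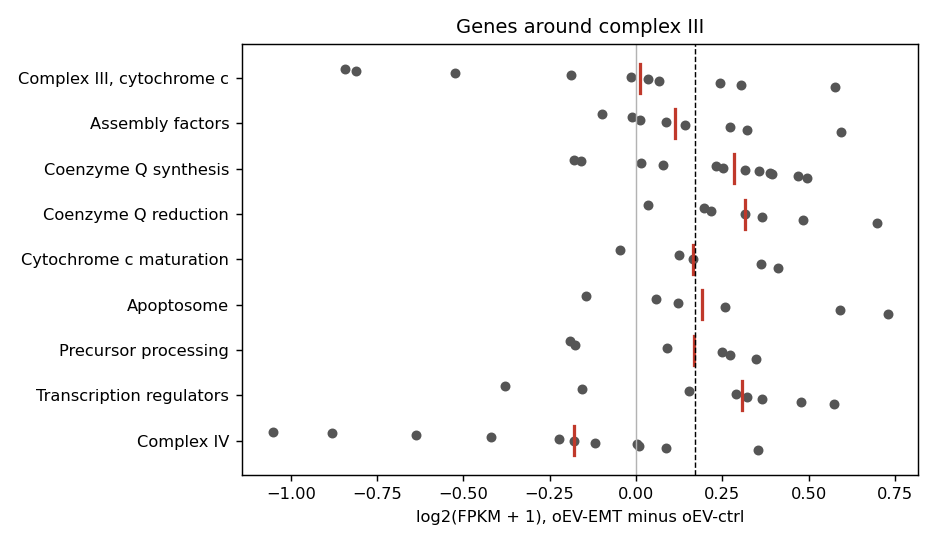
Difference between oEV-EMT and oEV-ctrl on the log2(FPKM + 1) scale for each tested gene (points) of the members and of 8 lists around complex III, with a red bar at the median of each list and a dashed line at the median of all genes, 0.17. The members spread from -0.84 for Uqcr10 to 0.58 for Uqcrc1, and complex IV genes from -1.05 for Cox7c to 0.35 for Cox6a1.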

How the data were processed

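Blastocyst RNA was sequenced after poly(A) selection in 6 libraries, grouped as oEV-EMT and oEV-ctrl by the sample labels. The authors mapped reads to the genome and built transcript models in StringTie; per the labels the build was mm10, and the aligner and versions are not given in the sources used here. The authors deposited FPKM for 55774 genes, of which 287 carry a new_gene name in place of an Ensembl identifier. These entries held from 37.1% (oEV-ctrl 2) to 45.7% (oEV-ctrl 1) of the summed FPKM of a library. TPM is the unit given in the methods, but sums per library ran from 1293175 to 1551567, so the values were taken as FPKM. No counts were used, and the count models foreseen in the design were not run. Read totals are not known. Relative depth was read from the steps between low FPKM values.

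Testing covered the 11924 genes that reached 1 FPKM in 3 or more libraries. On log2(FPKM + 1), limma (3.58.1, under R 4.3.3) was run with trended and robust variance and Benjamini-Hochberg adjustment, after it was tested on simulated data. A pseudocount of 1 understates changes of low genes. The members, lists and tests were chosen with earlier results of these data known. Named genes are the members, mt-Cytb, list genes with an unadjusted p of at most 0.05 or without overlap, and the 5 genes nearest in pattern to the member with the largest difference relative to all genes. Cyct, genes that share sequence with or overlap a member, and the gene matching a primer are named besides, and Bcs1l and Immp2l were named after their values were seen. A list gene that the rule would name is not reported here. Permutation tests were exact and two-sided (SciPy 1.17.1). Annotation was GENCODE M21 on GRCm38, which held 55227 of the identifiers, and upstream sequences were from RefSeq. Alternatives covered scaling, filter, pseudocount, variance model, library weights, transcript length, the replicate block and leaving out each library. The GC curve, and scaling together with the block, were added after seeing the data.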

Additional observations from a re-analysis of the deposited data

How the results depend on the processing

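Of the 10 members 0 were called at the thresholds of the study under every alternative run, and 0 at an adjusted p of at most 0.1 in the fit reported. With library weights, Uqcrh (-0.751, limma adjusted p = 0.0607) and, in the other direction, Uqcrc1 (0.861, limma adjusted p = 0.0856) fell below 0.1. Over all genes, 104 were called with library quality weights and 0 in the fit reported. Uqcrh, Uqcr10, Cycs and Uqcrb stayed negative, and Uqcrc1 and Cyc1 positive, in all alternatives; limma adjusted p-values of Uqcrh ran from 0.0607 with library weights to 0.609 without a filter. Members higher without overlap numbered 1 as reported. They numbered 0 after median-of-ratios scaling, upper quartile scaling or removal of a length or GC curve. After scaling to a sum of 1000000 they numbered 2 with new_gene entries (2703 of all genes) and 2 without (2674 of 11644 genes). As libraries were left out they numbered 1 to 3, where 2602 to 3651 of all genes were higher. The 3 were found without oEV-ctrl 3 or oEV-EMT 1. Of all 11924 genes, 3315 and 3241 were then higher, against 2158 as reported. Members lower without overlap numbered 2 as reported and 4 after upper quartile scaling (1494 of all genes, against 517 as reported). They numbered 2 to 3 as libraries were left out, where 702 to 1498 of all genes were lower. With 1 library fewer the groups separate more easily. The median relative to all genes ran from -0.27 to -0.00307 as libraries were left out, the latter without oEV-EMT 1, and was -0.0119 without the filter on low values and -0.0815 with library weights, against -0.161 as reported. Members below the median of all genes numbered 7 as reported, and 5 without the filter or without oEV-EMT 1.

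Small differences changed sign. For Uqcrfs1 (0.07 as reported) they were -0.123 after median-of-ratios scaling, -0.198 after upper quartile scaling, -0.115 with the length and -0.0604 with the GC curve removed. For Uqcrq (0.03) they were -0.155, -0.231, -0.0392 and -0.158 in the same order, and -0.0974 to 0.153 as libraries were left out. Uqcr11 (0.24) came to -0.0235 after upper quartile scaling and -0.0076 with the GC curve removed. Uqcrc2 (-0.01) came to 0.0802 and 0.0958 after scaling to a sum of 1000000 with and without new_gene entries, 0.0546 with library weights, and -0.138 to 0.165 as libraries were left out. The cause of these changes was not tested.

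Same-numbered libraries of the groups had correlations of 0.119, -0.0442 and 0.0388 in their deviations, so the numbers were not taken as pairs. With the replicate block 0 members were called, and 21 genes in all were called, against 0 without it. A block in this balanced design cannot change a difference, and overlap was counted on the values themselves. Neither is therefore a check here. DESeq2 was not run because the table holds no counts. With 3 libraries a group, the 95% interval of a member reached from 0.37 to 0.60 to either side of its difference.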
